A study of Mus musculus with 33 samples.

Results

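Chromatin modifiers and remodellers are the enzymes, subunits and readers that write, remove or recognise marks on histones and DNA or move nucleosomes. The genes described here carry RefSeq symbols of the families Kdm, Kmt2, Kmt5, Hdac, Kat, Smarc, Chd, Brd, Arid, Setd and Tet. The rule takes 106 protein-coding symbols, and it kept the 56 with at least 100 counts summed over all libraries, of 5246 genes that reach that sum. Of these 56, 2 are katanins, which share the letters Kat but sever microtubules. The other 54 are named chromatin genes here by their symbols, though Setd3 among them methylates actin. The genes were chosen by their symbols and by counts summed over all 24 libraries. Just inside the limit were Kmt5b with 112 counts and Chd3 with 132, and just outside it was Kdm1b with 98.6.

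Methyltransferases of the Kmt2, Kmt5 and Setd families add methyl groups to proteins, mostly to histone lysines, and Kdm demethylases remove them. Kat enzymes acetylate lysines, Hdac enzymes remove the acetyl group, and Brd proteins read it through a bromodomain. Most Smarc proteins and the Arid1 proteins belong to the SWI/SNF remodellers, Chd proteins are a further family of remodellers, and Tet enzymes oxidise 5-methylcytosine. ZMYND8, the protein knocked out here, reads modified histone tails and is known to partner with the nucleosome remodelling and deacetylase complex NuRD and with demethylases of the Kdm5 group.

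RNA came from CH12, a B lymphoma line of the mouse whose cells switch from IgM to IgA when stimulated. Compared were the wild-type (WT) parent, a clone of WT genotype, and the ZMYND8 knockout clones KO1 and KO2; each knockout line is thus 1 clone, and the labels give neither the edited bases nor the method. Activated and unactivated cultures were grown for 48 h, 3 for every line and state. This gave 24 libraries of ribosome-depleted total RNA in 8 groups, and the activating agent is not named in the labels. Depth was 28.99 to 34.07 M estimated counts per library. The 9 ChIP-seq and GRO-seq samples were not analysed here.

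A gene value is the sum of estimated counts over numbered genomic regions lying wholly inside 1 gene, so it measures RNA from parts of a gene. Whether a region is exonic or intronic, and which strand it came from, is not known, and mature mRNA is not measured by it. The 56 genes hold 251 regions, with a median of 3 per gene, covering a median of 3.72% of a gene's span. Another 38 symbols held no such region, among them Chd4, Hdac1, Hdac2, Kat5 and Kdm5c, and 12 more fell under 100 counts. The NuRD enzymes Chd4, Hdac1 and Hdac2 and the demethylase Kdm5c therefore have no value here. Levels are CPM, counts scaled to the size of the whole library, and a mean ± SD is over n = 6 libraries of a genotype and state unless another n is given. Log2 changes carry their standard error (SE), and a change was called at an adjusted p under 0.05 in edgeR's quasi-likelihood test over 4485 genes. Of the 56 genes, 55 passed the filter on low counts, which left out Chd3.

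Before the results, 3 facts of the libraries bear on them. In unactivated WT cells, parental replicate 3 and WT clone replicate 2 stood apart, with 11590 and 12190 CPM summed over all gene values against 8417 to 9159 in the other 4 libraries. Their summed levels of the 56 genes were 67.8 and 59.17 CPM, against 39.27 to 50.14, so counts of called genes and named calls that use these libraries are given with and without them. The regions of Zmynd8 itself held 1.623 to 4.274 CPM in the KO libraries and 1.235 to 3.224 CPM in the WT libraries, so region RNA does not check the KO labels. Of 10 B cell markers, 6 had a value, and Cd79b, Ms4a1 and Cd74 were among those with no region RNA. These 6 summed to 20.63 to 46.41 CPM in unactivated and 34.73 to 56.03 CPM in activated WT libraries. In KO libraries the sums were 35.16 to 50.73 and 53.4 to 71.38 CPM. Of 5 tested, Ebf1 and Blk were called higher in activated KO cells, against 6.35% of all genes called higher. None was called in unactivated KO cells, but Ebf1 was without the set-apart libraries (0.78 ± 0.21, adjusted p = 0.024). The part of these markers in the results was not tested. Of 7 T cell markers, Lck alone had a value (0.152 to 0.815 CPM); it was higher in KO lines by 1.03 (unactivated; 0.88 and not called without the set-apart libraries, adjusted p = 0.0961) and 1.32 (activated) on the log2 scale, and its part in the results was not tested. In bulk RNA, fewer cells expressing a gene and less RNA per cell cannot be told apart.

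Per kilobase of measured region, the highest levels were those of Smarca5, an ISWI-type motor, with 0.737 CPM per kb, Kdm1a, a demethylase of histone H3, with 0.726, and Setd2, the methyltransferase for H3 lysine 36, with 0.718. Hdac9, a class IIa deacetylase, was lowest with 0.0352 CPM per kb. The ranges over libraries of the 3 highest overlapped (0.383 to 1.38, 0.367 to 1.21 and 0.351 to 1.14 CPM per kb), so their order is not separated by the spread.

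**Figure D1:**
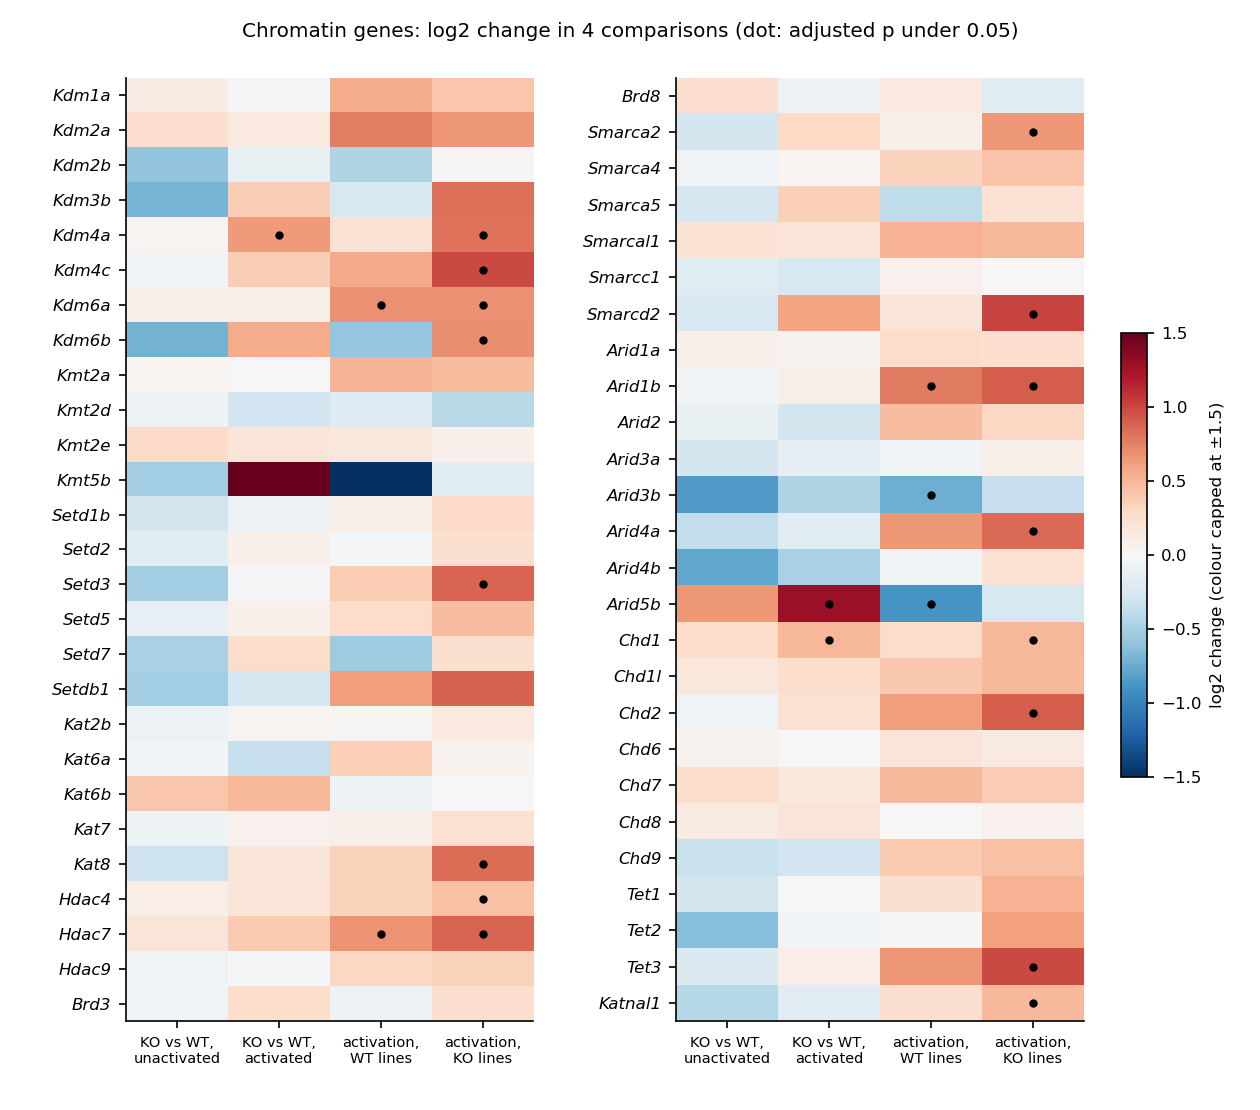
Log2 changes of 53 of the 55 tested genes (rows, by family) in 4 comparisons (columns); red is higher and blue lower in KO lines or in activated cells, the colour is capped at 1.5, and a dot marks an adjusted p under 0.05. No gene has a dot in unactivated KO against WT cells, 3 have one in activated cells, 5 in the activation of WT lines and 16 in that of KO lines.

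In activated cells, loss of ZMYND8 was accompanied by higher region RNA of Arid5b, Chd1 and Kdm4a. These 3 of 55 genes (5.45%) were called, all higher, against 8.7% of all genes tested in either direction and 6.35% higher. The median log2 change was 0.08 over the chromatin genes and katanins and 0.07 over all genes. Arid5b was the 1 call left when WT clone replicate 2 or 3, KO1 replicate 1 or KO2 replicate 1 was left out. Over all genes these fits called 288 to 356, against 390 with all libraries.

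Arid5b, a DNA-binding ARID protein known to work with the demethylase PHF2, lies on chr10:68092523-68279355 (GRCm38). In activated parental WT cells it held 1.21, 1.38 and 1.19 CPM, in the activated WT clone 1.29, 1.12 and 1.02, in KO1 2.08, 2.82 and 2.38, and in KO2 3.62, 3.16 and 3.92 CPM. All 6 KO cultures were above all 6 WT cultures. Mean levels were 3.00 ± 0.709 CPM (KO) and 1.20 ± 0.127 CPM (WT), a log2 change of 1.29 ± 0.23 (2.45-fold, adjusted p = 0.000358). Each pairing of 1 KO with 1 WT line gave a higher value in the KO line, from 0.94 (KO1 against parental WT, adjusted p = 0.148) to 1.64 (KO2 against the WT clone, adjusted p = 0.00167). This call held in all 24 alternative analyses run on it, with log2 changes of 1.01 to 1.57.

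Within Arid5b, 4 of 12 regions could be tested one by one, and all 4 had log2 changes above 0 in activated KO cells, 2 of them called. The largest change was at chr10:68238602-68241670, 37.7 kb from the 5′ end of the gene, with 54 counts in the 6 WT and 212 in the 6 KO libraries (log2 change 1.95 ± 0.29, adjusted p = 2.33e-05 over 11166 regions). A region near the 3′ end, chr10:68123298-68127670, rose by 1.15 ± 0.30 (adjusted p = 0.0101). The remaining pair of regions had log2 changes of 0.78 and 1.31 with adjusted p of 0.156 and 0.107. So the higher Arid5b value was not confined to a single region. Of all 92 single regions of the chromatin genes and katanins that could be tested, 3 were called (3.26%), against 10.7% of all regions.

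Chd1, a remodeller that reads trimethylated H3 lysine 4, lies on chr17:15704967-15772612. Its lowest, median and highest values were 1.98, 2.53 and 2.98 CPM in activated KO and 1.54, 1.76 and 2.11 CPM in activated WT cultures. The groups overlapped, and 5 of 6 KO cultures were above the highest WT culture. The log2 change was 0.50 ± 0.14 (1.42-fold, adjusted p = 0.0189), and its largest region, chr17:15768933-15769921, rose by 0.71 ± 0.16 (adjusted p = 0.00403). The call for the gene was lost in 10 of 24 alternatives, where adjusted p reached 0.189.

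Kdm4a, a demethylase of H3 lysines 9 and 36, lies on chr4:118136957-118180090. It ranged from 0.588 to 1.33 CPM (median 0.804) in activated KO and from 0.405 to 0.682 CPM (median 0.556) in activated WT cultures, so the groups overlapped. The log2 change was 0.64 ± 0.20 (1.56-fold, adjusted p = 0.0415), and it was lost in 16 of 24 alternatives, with adjusted p of up to 0.384. Both KO lines had higher means than both WT lines, at 0.788 ± 0.231 and 0.969 ± 0.328 CPM (n = 3 cultures each) against 0.540 ± 0.139 and 0.578 ± 0.0838. Chd1 and Kdm4a were both called in KO2 alone against the WT lines, and neither was in KO1 alone. Over all genes 336 were called in KO2 alone and 179 in KO1 alone.

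**Figure D2:**
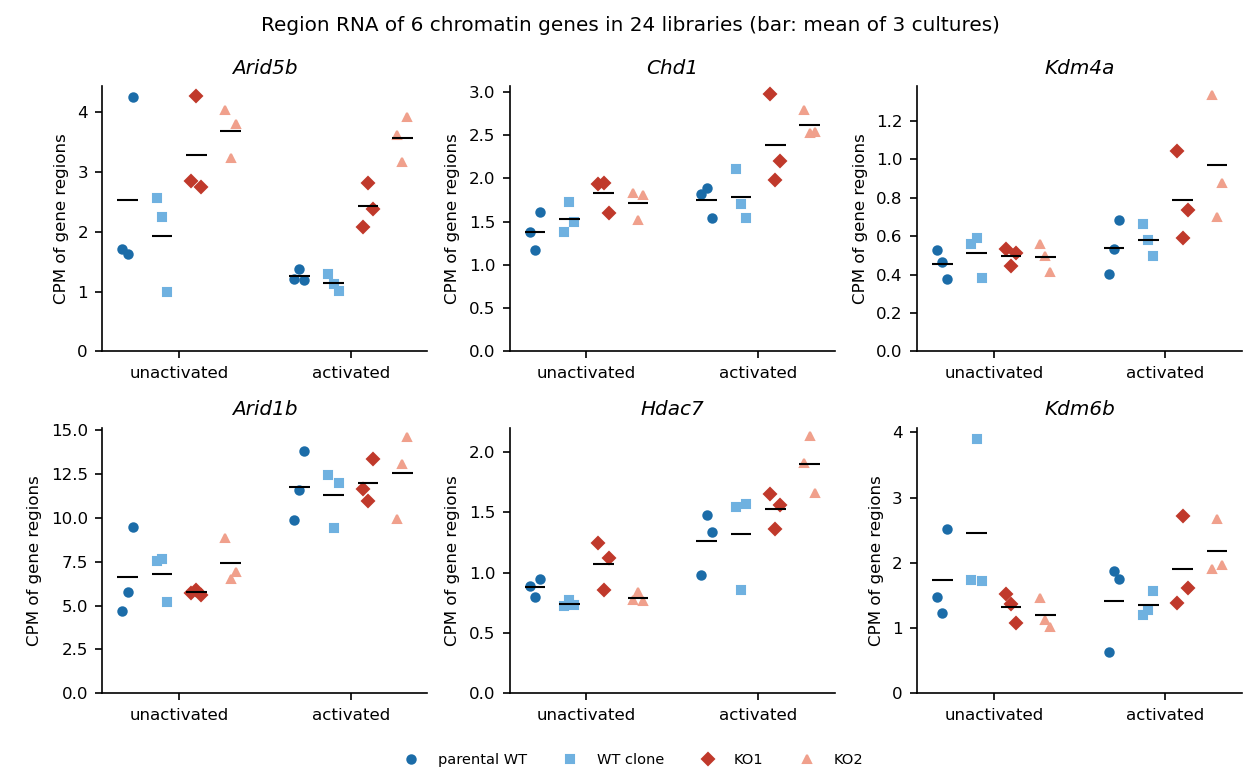
Region RNA (CPM, linear axes from 0) of 6 genes in each of 24 libraries; each point is 1 culture, symbols mark the line, and bars are means of 3 cultures. Arid5b is separated between activated KO and WT cultures, Arid1b and Hdac7 are higher in most activated cultures, and the 2 set-apart WT libraries give the highest unactivated WT points of Arid5b (4.25 CPM) and Kdm6b (3.90 CPM).

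In unactivated cells no gene of the 55 was called between KO and WT lines, against 6.6% of all genes. An unadjusted p under 0.05 in edgeR was reached by 7 of the 55 and by 834 of all 4485 genes. DESeq2 called 1 of the 55 (Arid5b) and 298 of all genes. With a library left out, Arid3b was called without parental WT replicate 2 or without KO1 replicate 2, Arid5b without WT clone replicate 1, and Arid5b and Kat6b without parental WT replicate 3. Over all genes these fits called 242 to 298. The lowest adjusted p was that of Arid3b, a relative of the B cell factor Arid3a (Bright): median levels were 0.684 CPM (KO) and 1.11 CPM (WT), with a log2 change of -0.85 ± 0.27 and an adjusted p of 0.0581. The ranges, 0.302 to 1.02 and 0.827 to 2.08 CPM, overlapped, and without both set-apart libraries the log2 change was -0.60 ± 0.28 (adjusted p = 0.244).

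Arid5b had medians of 3.52 CPM in unactivated KO and 1.98 CPM in unactivated WT cultures, with a log2 change of 0.65 ± 0.22 that was not called (adjusted p = 0.0705). The WT values were 1.71, 1.64 and 4.25 CPM in the parental line and 2.56, 2.25 and 0.985 CPM in the clone, and the highest came from the set-apart parental replicate 3. Without both set-apart libraries Arid5b was higher in KO by 1.01 ± 0.20 (adjusted p = 0.0015) and was the 1 gene called of 55, against 6.68% of all genes. The KO effect on Arid5b did not pass the test of its difference between states (0.64 ± 0.31, adjusted p = 0.459).

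No gene passed that test of a different KO effect in the activated and unactivated state, against 0.557% of all genes. An unadjusted p under 0.05 in edgeR was reached by 484 of all 4485 genes and by 1 of the 55. This was Kdm6b, a demethylase of H3 lysine 27 known as an early gene in stimulated immune cells. Its medians in KO and WT lines were 1.24 and 1.73 CPM in unactivated cells, where the log2 change was -0.71 ± 0.26 (adjusted p = 0.101; -0.28 ± 0.24 and 0.6 without the set-apart libraries). In activated cells the log2 change was 0.56 ± 0.25 (adjusted p = 0.213). The difference was 1.27 ± 0.36 with an adjusted p of 0.11 in edgeR; DESeq2 and the fit without a low-count filter called it. The set-apart WT clone replicate 2 held 3.90 CPM, and without both set-apart libraries the difference was 0.84 ± 0.32 (adjusted p = 0.302) and again no gene of the 55 was called, against 0.471% of all genes.

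On activation of the WT lines 5 of 55 genes (9.09%) were called, 3 higher and 2 lower, against 21.9% of all genes, or 16.5% higher and 5.44% lower. Arid1b, Kdm6a and Hdac7 rose, and Arid5b and Arid3b fell. The median log2 change was 0.24 over the chromatin genes and katanins and 0.18 over all genes. With scaling factors taken from gene values alone the median over all genes moved to -0.03, and the split was 2 higher and 5 lower (Arid1b and Hdac7, against Arid3b, Arid5b, Kdm2b, Kdm6b and Setd7). With that scaling 1008 of all genes were called. Of the 55, the count was 12 without unactivated parental WT replicate 3, 8 without activated WT clone replicate 2 and 3 without activated parental WT replicate 3. Over all genes the counts were then 1187, 934 and 857, against 982 in the main fit.

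Arid1b, the ARID subunit of the BAF form of SWI/SNF, lies on chr17:4994297-5347656 and had the most counts of the 56 genes. Its lowest, median and highest values were 9.43, 11.8 and 13.8 CPM in activated and 4.67, 6.67 and 9.48 CPM in unactivated WT cultures. The ranges met at the set-apart parental replicate 3, which held the highest unactivated value. The log2 change was 0.78 ± 0.17 (1.71-fold, adjusted p = 0.000911), and it was called in all 23 alternatives. Its 2 largest regions, chr17:5174363-5181732 and chr17:5184537-5190953, rose by 1.05 ± 0.20 (adjusted p = 0.000338) and 0.71 ± 0.24 (adjusted p = 0.0303), and by 1.14 ± 0.23 and 0.81 ± 0.25 without the set-apart libraries, both still called.

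Hdac7, a class IIa deacetylase that represses lineage genes in B cell precursors, lies on chr15:97792661-97844502. It had medians of 1.41 CPM in activated and 0.787 CPM in unactivated WT cultures (ranges 0.852 to 1.57 and 0.723 to 0.945 CPM), with 1 activated culture inside the unactivated range. The log2 change was 0.68 ± 0.17 (adjusted p = 0.00425). Kdm6a, an X-linked demethylase of H3 lysine 27, had medians of 1.01 and 0.662 CPM, with overlapping ranges of 0.607 to 1.54 and 0.626 to 0.723 CPM (log2 change 0.68 ± 0.23, adjusted p = 0.0323). The call for Kdm6a was lost in 11 of 23 alternatives, among them the 1 without both set-apart libraries (0.65 ± 0.26, adjusted p = 0.0669).

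Arid5b was lower in activated than in unactivated WT cultures, with medians of 1.20 and 1.98 CPM and a log2 change of -0.88 ± 0.23 (adjusted p = 0.00574). The lowest unactivated culture (0.985 CPM) was below all activated ones. Its region chr10:68238602-68241670 fell by 1.43 ± 0.31 on the log2 scale (adjusted p = 0.000921), with 133 counts in unactivated and 54 in activated WT libraries. Arid3b had medians of 0.789 CPM in activated and 1.11 CPM in unactivated cultures, with overlapping ranges (log2 change -0.74 ± 0.27, adjusted p = 0.0459). Without both set-apart libraries neither fall was called, with -0.52 ± 0.21 (adjusted p = 0.0627) for Arid5b and -0.49 ± 0.27 (adjusted p = 0.192) for Arid3b. That region of Arid5b still fell (-1.42 ± 0.31, adjusted p = 0.00103), but the gene's region chr10:68246824-68250212 then rose (0.93 ± 0.32, adjusted p = 0.0323). The other tested Arid5b regions were not called (-0.43 ± 0.33 and -0.94 ± 0.59, adjusted p = 0.348 and 0.241), so called regions went in both directions.

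Leaving out those libraries also changed which genes rose. Then 15 of 55 genes (27.3%) were called, 14 higher and 1 lower, against 27.1% of all genes, and the median log2 change was 0.40 over the chromatin genes and katanins and 0.34 over all genes. Arid1b (1.00 ± 0.16) and Hdac7 (0.72 ± 0.20) were called in both analyses. Those called on top were Arid2, Arid4a, Chd2, Chd7, Chd9, Hdac4, Hdac9, Kdm1a, Setd3, Setd5, Smarca4 and Tet3, all higher. Chd2, a remodeller, changed most of these (1.17 ± 0.22, adjusted p = 0.000273), followed by Setd5 (1.05 ± 0.28, adjusted p = 0.00521). The 1 lower gene, Kmt5b, a methyltransferase of H4 lysine 20 with 1 region, held between 0 and 24 counts per library and was at 0 in 13 of 24.

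**Figure D3:**
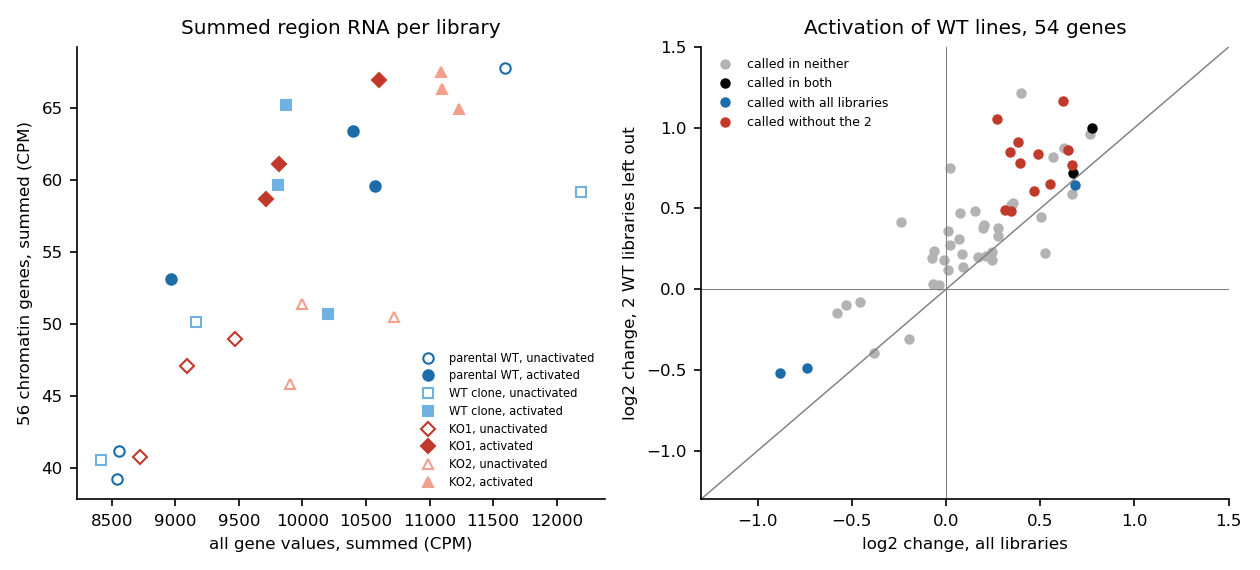
Left, region RNA summed over the 56 genes against the sum of all gene values (both CPM), 1 point per library. Right, log2 changes on activation of WT lines with all libraries (x) and without 2 unactivated WT libraries (y) for 54 genes, Kmt5b being outside the axes; 2 genes were called both ways, 3 only with all libraries and 12 only without the 2 (black, blue and red), and most points lie above the diagonal.

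On activation of the KO lines 16 of 55 genes (29.1%) rose and none fell, against 28.3% of all genes called in either direction and 24.1% higher. The share was thus near that of all genes. The median log2 change was 0.43 over the chromatin genes and katanins and 0.28 over all genes. Their summed level was 64.24 ± 3.55 CPM in activated and 47.41 ± 3.86 CPM in unactivated KO cultures, and the ranges, 58.7 to 67.49 and 40.78 to 51.38 CPM, did not overlap. Arid1b alone gave 9.938 to 14.61 and 5.618 to 8.869 CPM of these sums. Sums over all gene values were 9713 to 11230 CPM in activated and 8721 to 10720 CPM in unactivated KO cultures. In WT lines the summed levels of the 56 genes overlapped (50.7 to 65.19 CPM activated, 39.27 to 67.8 CPM unactivated). Without the set-apart libraries the unactivated WT range was 39.27 to 50.14 CPM, and the WT ranges did not overlap either. With scaling factors from gene values alone the median over all genes moved to -0.03, and 3 genes were called higher (Arid1b, Chd2 and Hdac7) and 1 lower (Arid5b). Over all genes that scaling called 1061, against 1268 in the main fit. Without unactivated KO2 replicate 2 the count was 9 of the 55 and 1066 over all genes.

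Demethylases gave 4 of the 16 calls, in 8 tested Kdm genes, against 24.1% of all genes called higher; with scaling factors from gene values alone no Kdm gene was called. Kdm4c, like Kdm4a a demethylase of H3 lysine 9, ranged from 0.279 to 0.856 CPM (median 0.384) in activated and from 0.0934 to 0.302 CPM (median 0.246) in unactivated KO cultures, with a log2 change of 0.99 ± 0.32 (adjusted p = 0.0233). Its counts were 3 to 28 per library, and the groups overlapped. Kdm4a rose by 0.82 ± 0.20 (adjusted p = 0.00319) with groups that did not overlap. Kdm6b rose by 0.69 ± 0.25 and Kdm6a by 0.69 ± 0.23, both with overlapping groups. The comparisons of KO with WT in activated cells and of activation in KO lines share the activated KO libraries.

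Smarc, Chd and Arid genes gave 6 of the 16 calls, in 21 tested genes, against 24.1% of all genes called higher. Smarcd2, an accessory subunit of SWI/SNF known from granulocyte formation, had 1 region of 553 bases, with values of 0.286 to 0.434 CPM (median 0.337) in activated and 0.0634 to 0.249 CPM (median 0.184) in unactivated KO cultures. The groups did not overlap, and the log2 change was 1.02 ± 0.31 (2.03-fold, adjusted p = 0.0137), from 2 to 15 counts per library. Chd2 rose by 0.91 ± 0.25 (1.33 to 1.68 against 0.478 to 1.16 CPM) and Chd1 by 0.50 ± 0.14, neither with overlapping groups. Smarca2, a SWI/SNF motor, rose by 0.65 ± 0.24 with overlapping groups. Arid1b went from a median of 6.19 to 12.3 CPM, again without overlap, with a log2 change of 0.91 ± 0.17 (1.87-fold, adjusted p = 0.000135). Arid4a, which belongs to the Sin3 deacetylase complex, rose by 0.85 ± 0.27 with overlapping groups.

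The other calls were Tet3, Hdac7, Hdac4, Kat8, Setd3 and the katanin Katnal1. Tet3 ranged from 0.465 to 0.953 CPM (median 0.701) in activated and from 0.273 to 0.560 CPM (median 0.327) in unactivated KO cultures; the groups overlapped, and the log2 change was 0.99 ± 0.28 (adjusted p = 0.00852). Hdac7 rose by 0.88 ± 0.16 (adjusted p = 0.000168), from 0.760 to 1.25 CPM before to 1.36 to 2.12 CPM after, with no overlap. Kat8, the acetyltransferase of H4 lysine 16, rose by 0.84 ± 0.24, Setd3, an actin histidine methyltransferase, by 0.87 ± 0.31, Hdac4 by 0.45 ± 0.16 and Katnal1 by 0.49 ± 0.18. Of these 16 calls, those of Katnal1 (18), Hdac4 (16), Smarca2 (13), Kdm6b (12) and Setd3 (12) were lost in most of 22 alternatives. Those of Arid4a and Kdm4c were lost in 8, that of Kdm6a in 7 and the others in 4 or fewer, while Arid1b was called in all 22. In KO1 alone Arid1b was the single call, and in KO2 alone there were 6, against 725 and 675 called over all genes.

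**Figure D4:**
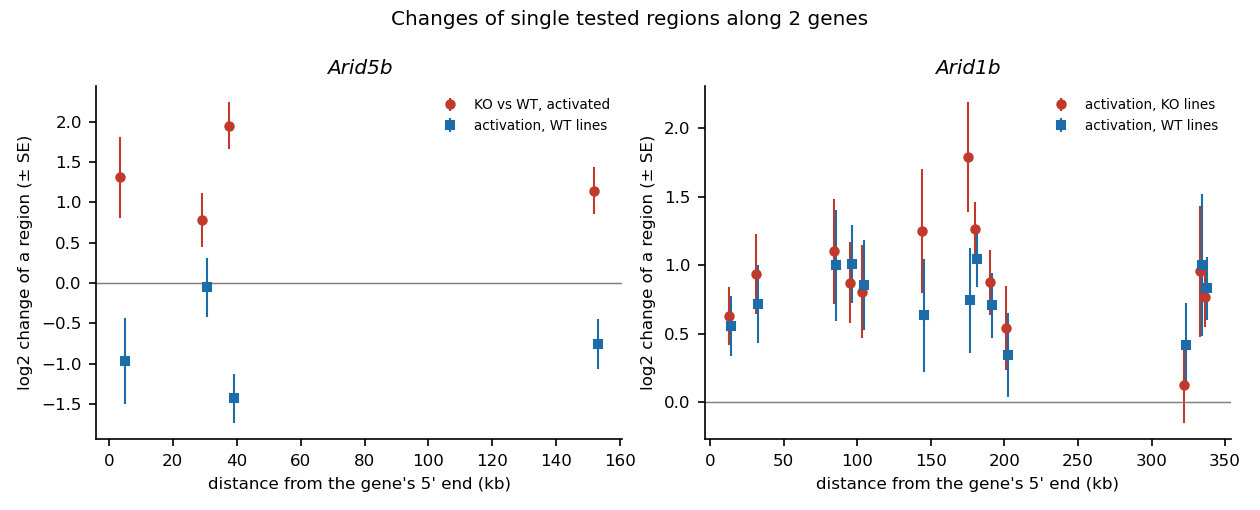
Log2 changes ± SE of single tested regions (points) by distance from the gene's 5′ end in kilobases, for Arid5b (KO against WT in activated cells, red, and activation of WT lines, blue) and Arid1b (activation of KO lines, red, and of WT lines, blue). All 4 Arid5b regions lie above 0 for KO against WT, and all 13 Arid1b regions lie above 0 for activation in both genotypes.

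Along Arid1b, 13 regions could be tested; 9 were called higher on activation of KO lines and 4 on activation of WT lines, and none lower. Over the 92 tested regions of the chromatin genes and katanins, 23 were called higher and 0 lower in KO lines (25%, against 29.5% of all regions), and 11 higher and 3 lower in WT lines (15.2%, against 22.9%). In unactivated cells 2 regions were higher and 2 lower in KO (4.35%, against 8.23%). The lower ones were single regions of Chd9 (chr8:90876119-90877817, -1.55 ± 0.48, adjusted p = 0.0422) and Kdm2b (chr5:122893818-122895384, -1.71 ± 0.51, adjusted p = 0.0336). Neither gene was called by its sum. Without the set-apart libraries 2 of 99 tested regions were higher and 0 lower in unactivated KO cells (2.02%, against 6.98% of all regions); the Chd9 region was at -0.77 ± 0.49 (adjusted p = 0.437), and that of Kdm2b did not pass the filter on low counts. On activation of WT lines 23 were then higher and 2 lower (25.3%, against 26.9%), with 9 of 14 tested Arid1b regions higher.

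Of the 18 genes called in any comparison with all libraries, 14 have starts in the RefSeq promoter table (GRCm38.p6), and 3 have a start whose upstream 250 bases lie outside any gene. These 3 genes, Hdac7, Kat8 and Kdm4c, rose together on activation of KO lines, and the bases just upstream of their starts are shown 5′ to 3′ on the gene's strand. Capitals mark the GC box GGGCGG, the element bound by Sp and Klf factors, here on the opposite strand.
Hdac7 (chr15:97844503-97844752, minus strand): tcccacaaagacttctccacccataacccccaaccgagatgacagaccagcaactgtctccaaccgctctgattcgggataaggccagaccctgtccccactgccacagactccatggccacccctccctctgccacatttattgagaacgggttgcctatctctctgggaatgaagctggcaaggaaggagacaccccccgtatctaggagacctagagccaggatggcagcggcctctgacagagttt
Kat8 (chr7:127912267-127912516, plus strand): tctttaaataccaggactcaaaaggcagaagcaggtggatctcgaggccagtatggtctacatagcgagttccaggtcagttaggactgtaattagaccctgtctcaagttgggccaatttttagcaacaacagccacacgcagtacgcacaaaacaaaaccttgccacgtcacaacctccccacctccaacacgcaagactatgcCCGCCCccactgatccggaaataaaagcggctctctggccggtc
Kdm4c (chr4:74242247-74242496, plus strand): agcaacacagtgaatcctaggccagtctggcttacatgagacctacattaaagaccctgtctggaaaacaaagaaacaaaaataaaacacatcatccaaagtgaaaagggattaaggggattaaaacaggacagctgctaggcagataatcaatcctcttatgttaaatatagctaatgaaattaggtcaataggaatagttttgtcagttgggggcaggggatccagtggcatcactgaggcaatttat
Guanine and cytosine made up 56.4%, 51.2% and 39.6% of these bases, and CG pairs numbered 6, 10 and 0, against medians of 52.4% and 6 over 32851 such windows. Over all 21 upstream windows of the called genes, 12 held GGGCGG on either strand, and it was in 32.74% of all windows. CACGTG was in 2 (6.02% of all), TGANTCA in 2 (6.75%), TGACGTCA in 0 (1.55%), CCGGAAGT in 0 (2.88%) and the NF-kappaB consensus in 1 (7.25%). Guanine and cytosine made up 39.6% to 76.0% of these 21 windows, most of them above the median of 52.4%. The shares of windows with a motif were not compared with windows of like composition. A match describes letters only, and several windows belong to the same gene and overlap.

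Of 15 central enzymes fixed for naming, 10 had a value, and none of the 10, Kdm6b and Tet3 among them, was called between KO and WT lines in either state. In activated cells the log2 changes of Kdm1a, Setd2, Smarca4, Arid1a and Tet2 were -0.01 ± 0.19, 0.08 ± 0.20, 0.04 ± 0.26, 0.05 ± 0.13 and -0.04 ± 0.23. Those of Kmt2d and Kat6a were -0.29 ± 0.28 and -0.34 ± 0.35. On simulated data for unactivated cells, 63% of genes changed 2-fold were called, and 45.2% of those under 30 counts per library. Of the 55 genes, 39 (70.9%) lie under 30 counts, against 65.6% of all genes tested. So changes of that size can be missed at this depth. Activated cells were not simulated, and the simulated libraries held no shift like that of the set-apart libraries.

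None of the 55 genes was called between the lines of 1 genotype, with 0.223% of all genes called between the WT lines and 0.424% between the KO lines. In each of these comparisons 1 gene of the 55 had an unadjusted p under 0.05 in edgeR, against 317 (WT lines) and 314 (KO lines) of all 4485 genes. DESeq2 called none of the 55, and 18 and 27 of all genes. Between the WT lines none was called without the set-apart libraries either, against 0.278% of all genes.

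Partners from 8 other gene lists were counted the same way. Of their 53 tested genes, 4 were called between KO and WT in unactivated cells (7.55%, against 6.6% of all genes), 1 in activated cells (1.89%, against 8.7%), 7 on activation of WT lines (13.2%, against 21.9%) and 10 on activation of KO lines (18.9%, against 28.3%). So these shares were near or below those of all genes. Without the set-apart libraries 4 of 55 were called in unactivated cells (7.27%, against 6.68%) and 11 on activation of WT lines (20%, against 27.1%). With all libraries the medians of the lists lay between -0.21 and 0.16 for KO against WT in unactivated cells (all genes -0.04), between -0.06 and 0.12 in activated cells (all genes 0.07), and between -0.26 and 0.38 for activation of KO lines (all genes 0.28). Of 8 tested NuRD and CoREST genes, none was called between KO and WT lines, but Zmynd11, a reader of H3.3 methylated at lysine 36, was higher in unactivated KO cells without the set-apart libraries (1.48 ± 0.38, adjusted p = 0.016). Phf21a, a CoREST subunit, rose on activation by 0.84 ± 0.23 in WT and 1.05 ± 0.23 in KO lines; Mta3 of NuRD rose in WT lines (0.43 ± 0.13), and Zmynd11 fell in KO lines (-1.24 ± 0.35). Of 6 other SWI/SNF genes, Ss18 was lower in KO lines, by -1.17 ± 0.15 unactivated (adjusted p = 7.68e-06) and -0.66 ± 0.15 activated (adjusted p = 0.00336), and Bcl7a (0.98 ± 0.27) and Bcl11a (0.62 ± 0.21) rose on activation of WT lines. Without the set-apart libraries Ss18 remained called in unactivated cells (-1.21 ± 0.15, adjusted p = 9.6e-06), and Bcl11a did not on WT activation (0.62 ± 0.23, adjusted p = 0.0501). The rises of Phf21a (1.09 ± 0.25), Mta3 (0.53 ± 0.14) and Bcl7a (0.95 ± 0.31) in WT lines were called without them too.

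For the further lists the shares of all genes called were the same: 6.6% (KO against WT, unactivated), 8.7% (activated), 21.9% (activation of WT lines) and 28.3% (activation of KO lines). Of 9 Polycomb genes, Jarid2, a cofactor of PRC2, was lower in unactivated KO than WT cells (-0.57 ± 0.14, adjusted p = 0.0147) and fell on activation of WT lines (-0.46 ± 0.14). Without the set-apart libraries Jarid2 remained lower in KO (-0.71 ± 0.14, adjusted p = 0.00122) and on WT activation (-0.61 ± 0.14, adjusted p = 0.00133). Of 4 further acetyltransferase genes, Ncoa3 was lower in unactivated KO cells (-0.89 ± 0.25; -0.76 ± 0.25 and adjusted p = 0.0743 without the set-apart libraries), and Ncoa2 rose on activation in both genotypes (0.47 ± 0.15 and 0.64 ± 0.15). Of 5 DNA methylation genes, Dnmt3a, a de novo methyltransferase, rose on activation in WT (0.67 ± 0.14) and KO lines (0.69 ± 0.14). Without the set-apart libraries the WT rises of Ncoa2 (0.58 ± 0.15) and Dnmt3a (0.81 ± 0.14) were called as well. Of 9 other methyltransferase genes, Smyd3, Ehmt1 and Ezh2 rose on activation of KO lines (1.29 ± 0.23, 0.79 ± 0.20 and 0.68 ± 0.21), against 24.1% of all genes called higher. Of 10 ISWI, INO80 and SWR1 genes, Baz2a (0.76 ± 0.19) and Bptf (0.58 ± 0.13) rose and Ruvbl1 (-0.68 ± 0.25) fell there, and neither of 2 COMPASS genes was called.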

How the data were processed

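Ribosome-depleted total RNA was sequenced in 24 libraries, stranded and single-end per the labels. Per the submitters' processing notes, kallisto 0.43.0 and DESeq2 were used with the build GRCm38.p5 (index and strand options: not given in the sources used here). Tables deposited by the authors hold estimated counts (expected counts, not whole) and TPM for 171152 targets; the TPM values were not used. Of 49745 numbered regions (251 to 20296 bases), 26591 lie wholly inside exactly 1 RefSeq GRCm38.p6 gene, and their rounded counts were summed to 10750 gene values; 12 whole-locus entries were left out. Transcripts were not used, since no table linking them to genes was used here, and reads kallisto assigned to a transcript are not in the region values. Single regions were kept and tested in the same model.

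Library sizes were totals over all targets, with trimmed mean of M values (TMM) factors from 61074 targets kept by filterByExpr. All libraries entered 1 edgeR 4.0.16 quasi-likelihood fit (R 4.3.3, limma 3.58.1) with 8 group means; p-values were Benjamini-Hochberg adjusted over 4485 genes, and called under 0.05. Contrasts were KO against WT within a state, activation within a genotype, the difference of KO effects, and lines of 1 genotype. The genes and lists were chosen with earlier results of these data known, and the motifs after them. Called genes and a fixed set of central enzymes are named, and the 3 highest and 3 lowest called in each comparison are given with their values by library or range; results for a few measured genes are left out of the text and plots. The labels call the 3 cultures biological repeats and say no more; p-values measure the spread between them. Replicates differed by more than sampling noise (chi-square per degree of freedom 9.88 to 66.5), and each is counted as 1 replicate. Tested on simulated data for KO against WT in unactivated cells (4485 genes), the calls recovered 63% of 2-fold and 92% of 4-fold changes (45.2% and 89.7% under 30 counts per library), with 3.12% false calls. Alternatives were other scalings, DESeq2 1.42.0, no filter, regions across gene ends, a replicate block, the libraries of 1 comparison, lines alone, counts summed per line, each library left out and, chosen after seeing the data, both set-apart libraries left out.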

Additional observations from a re-analysis of the deposited data

How the results depend on the processing

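The counts of called genes among the 55 changed with the processing as follows, and the cause was not tested. Over all genes the main fit called 296 (unactivated KO against WT), 390 (activated), 982 (activation of WT lines), 1268 (activation of KO lines) and 25 (difference of KO effects). Without the 2 set-apart unactivated WT libraries the count was 1 for KO against WT in unactivated cells and 15 for activation of WT lines (312 and 1266 over all genes). With scaling within gene values it was 2 for unactivated KO against WT and 4 for activation of KO lines (351 and 1061 over all genes). Medians over all genes moved from 0.18 to -0.03 (WT activation) and from 0.28 to -0.03 (KO activation). DESeq2 gave 1, 8 and 1 for unactivated KO against WT, activation of KO lines and the difference of KO effects (298, 1052 and 55 over all genes). Without a low-count filter there were 3, 1 and 1 for KO against WT unactivated, activated and their difference (385, 404 and 81 over all genes). For activated KO against WT, KO1 alone, parental WT alone, the WT clone alone and counts summed per line each gave 1 (179, 205, 281 and 250 over all genes). Parental WT alone gave 3 and the WT clone alone 2 calls on activation (519 and 565 over all genes). On activation of KO lines KO1 alone gave 1, KO2 alone 6 and counts summed per line 10 (725, 675 and 1084 over all genes). With each library left out in turn, counts were 0 to 2 (unactivated KO against WT), 1 to 3 (activated), 3 to 12 (activation of WT lines, 12 without parental WT unactivated replicate 3, 3 without parental WT activated replicate 3) and 9 to 14 (activation of KO lines). Over all genes they were 212 to 314, 288 to 363, 855 to 1187 (1187 and 857 in the fits named) and 1052 to 1203. The replicate block gave 0, 3, 5, 16 and 0 calls among the 55 in the main comparisons, as without it (342, 430, 1025, 1332 and 45 over all genes). Libraries of the same number had deviations correlated at -0.43 to 0.383 (42 of 84 pairs above 0.1), and 18 of 24 correlated best with their own number, a hint from the data; the numbers were not taken to pair samples. None of the 24 calls among the 55 genes turned its direction in these alternatives; partner genes were rerun only without the set-apart libraries. A count from regions free of exons was not run, as no exon annotation was used here. Median gene values were 19.3 counts per library over the 55 tested genes and 18.7 over all genes tested, which limits what can be called.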
